A study of Mus musculus with 24 samples.

Results

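TEAD peaks of wild-type mouse liver that lay outside every region of H3K4me3, H3K27ac or H3K4me1 in the same genotype were followed into livers in which Myc, YAP or both had been induced. Members were chosen by measured peak calls: a wild-type TEAD peak was kept if no base of it overlapped a wild-type region of any of the 3 marks, and peaks on chromosome Y were left out. This gave 3207 of 33415 peaks (9.60%, Wilson 95% interval 9.29 to 9.92). They are called unmarked sites below. The remaining 30208 peaks are called marked, and were divided into 18913 promoter-like peaks, which touched a wild-type H3K4me3 region, and 11295 distal peaks, which touched H3K4me1 or H3K27ac but no H3K4me3.

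All animals carried R26-rtTA, a doxycycline-controlled transactivator expressed from the broadly active Rosa26 locus, and were induced for 2 days. Wild-type animals carried no further transgene (R26-rtTA;WT), tet-Myc animals carried a Myc transgene (R26-rtTA;tet-Myc), tet-YAP animals carried a YAP transgene encoding an activated mutant (R26-rtTA;tet-YAP), and double-transgenic tet-Myc/YAP animals carried both (R26-rtTA;tet-Myc;tet-YAP). The age and sex of the animals, and any pooling of animals, are not stated in the labels or methods. Chromatin immunoprecipitation with sequencing (ChIP-seq) was done for TEAD, Myc, RNA polymerase II, H3K27ac and H3K4me3 in the 4 genotypes. YAP peaks were available for the 2 genotypes with its transgene, and H3K4me1 regions for wild-type. The paper states that YAP binding was not significant in wild-type and tet-Myc livers. Each combination of antibody and genotype was 1 library. No test between genotypes was therefore possible, and every interval below covers the counting of peaks alone.

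TEAD proteins are DNA-binding factors with little activating capacity of their own. They recruit YAP, the coactivator that the Hippo kinase pathway keeps out of the nucleus, and much of their binding maps to enhancers. Myc binds E-box sequences and is found mostly where chromatin is already active. H3K4me3 marks promoters, H3K4me1 marks enhancers and promoter flanks, and H3K27ac marks those of either kind that are active, so a TEAD site with none of the 3 marks lies outside what these marks define as promoters and enhancers.

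The label of the sites was checked with RNA polymerase II, which the choice of members did not use. In wild-type liver 59 unmarked sites overlapped a polymerase peak (1.84%, 1.43 to 2.37), against 20.4% of distal, 72.4% of promoter-like and 48.1% of all wild-type TEAD peaks. The unmarked sites were thus nearly devoid of polymerase as well. They were far from marked chromatin: the median distance to the nearest wild-type mark region was 23570 bp (quartiles 9781 and 61167 bp), and to the nearest polymerase peak 85258 bp. Few sat at the boundary of the rule. Of the unmarked sites, 6 lay within 100 bp of a mark region, with a median TEAD fold enrichment of 5.64, whereas 9 peaks overlapped a mark region by at most 100 bp and had a median of 4.56. The labelled tissue could not be checked against liver marker genes, because no gene annotation of the build of the files (mm9) was used here. In whole liver, a site bound in fewer cells and a site bound less in each cell cannot be told apart.

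Unmarked TEAD peaks were only slightly weaker than marked ones. Their median fold enrichment over the control was 5.44 (quartiles 4.73 and 6.66, highest 48.1), against 5.79 for marked peaks, and their median pileup, the number of fragments stacked at the summit, was 32.0 against 36.0. They were narrower, with a median width of 455 bp against 602 bp. The pileup divided by the fold enrichment, which reflects the background estimated at a site, reached at most 17.7 at unmarked sites and 412 at marked ones. No unmarked site therefore had the very high background that some marked peaks had.

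TEAD persisted at most of these sites, but not equally in the 3 transgenic livers. In tet-Myc, 2576 unmarked sites again carried a TEAD peak (80.3%, 78.9 to 81.7), close to the 82.3% of all wild-type TEAD peaks. In tet-YAP, 1835 did (57.2%, 55.5 to 58.9), against 73.0% of all peaks. In tet-Myc/YAP, 2393 did (74.6%, 73.1 to 76.1), against 87.8%. Unmarked sites were therefore kept less often than TEAD peaks in general in both livers with the YAP transgene, and by 2.17 percentage points less often than marked peaks in tet-Myc, a difference that changed sign under 3 alternatives. It became 2.02 points in favor of unmarked sites when peaks were required to have a −log10 q of at least 10, 1.34 points with TEAD lists of equal length, and 0.704 points when the wild-type summit had to lie inside the other peak. In tet-YAP and tet-Myc/YAP the differences from marked peaks were -17.4 and -14.6 points, and no alternative changed their sign. The 4 TEAD libraries had similar depth (31.6 to 33.1 M tags), but list lengths ran from 32486 peaks in tet-YAP to 52392 in tet-Myc/YAP. The tet-YAP list, in which the fewest unmarked sites were kept, was the shortest, and the part of list length in the order of the genotypes was tested only by the equal-length alternative, under which 70.7%, 57.2% and 54.1% were kept in tet-Myc, tet-YAP and double-transgenic livers.

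**Figure D1:**
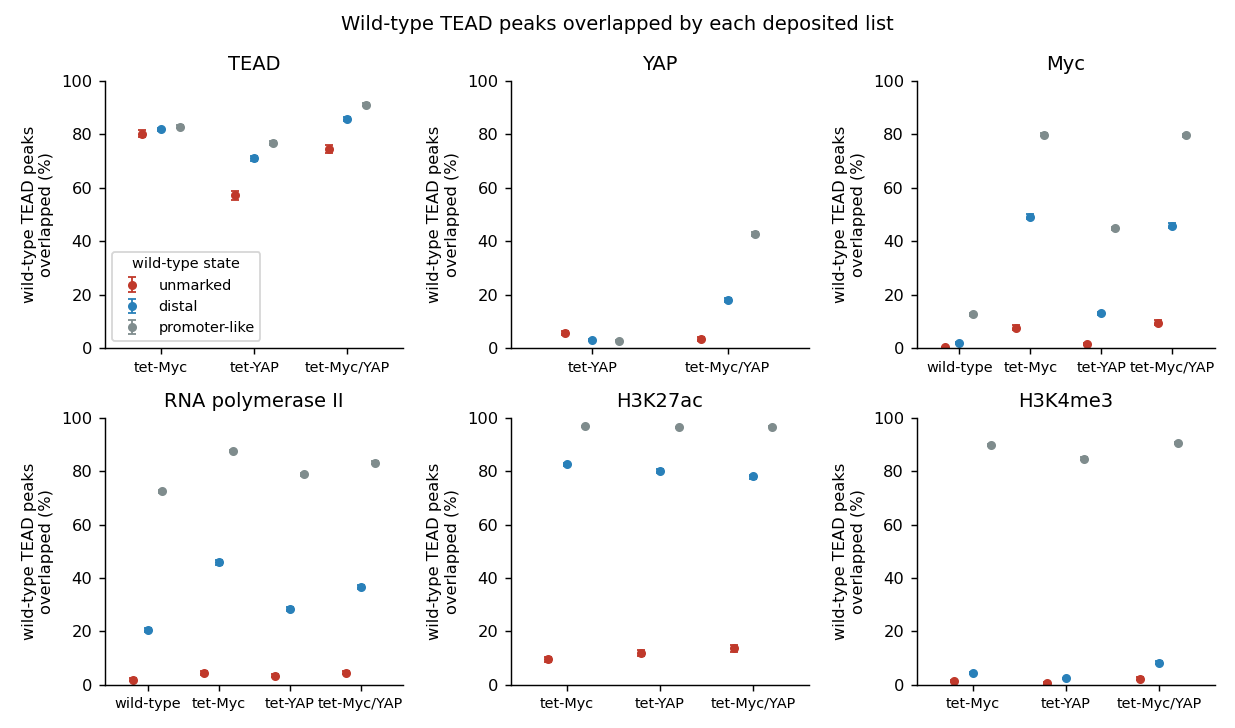
Percent of wild-type TEAD peaks overlapped by at least 1 bp in each list (vertical axis), by genotype (horizontal axis), for unmarked (red), distal (blue) and promoter-like (gray) peaks, with Wilson 95% intervals that cover counting only. Unmarked sites kept TEAD at 57.2 to 80.3% but were overlapped by Myc, polymerase, H3K27ac or H3K4me3 at 13.6% or less, and YAP was the one antibody for which the unmarked share was the highest of the 3, in tet-YAP.

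The difference in the YAP livers was also present among peaks of like strength. Wild-type TEAD peaks were divided by their −log10 q, a measure of how confidently the peak was called. In the class of 10 to 20, which held 1325 unmarked sites, TEAD was kept in tet-YAP at 63.2% of unmarked and 78.0% of marked peaks, and in tet-Myc/YAP at 80.9% and 91.8%. In tet-Myc the corresponding values were 85.7% and 85.4%. Weak sites were lost most: in the class of 5 to 10 (1268 unmarked sites), tet-YAP kept 36.8% of the unmarked and 51.1% of the marked peaks. At the 82 strongest unmarked sites, those of 50 and over, TEAD was kept at 100% in each of the 3 livers. With marked peaks weighted to the strength classes of the unmarked sites, their shares were 79.2%, 70% and 87.1% in tet-Myc, tet-YAP and double-transgenic livers, against 80.3%, 57.2% and 74.6% for the unmarked sites.

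**Figure D2:**
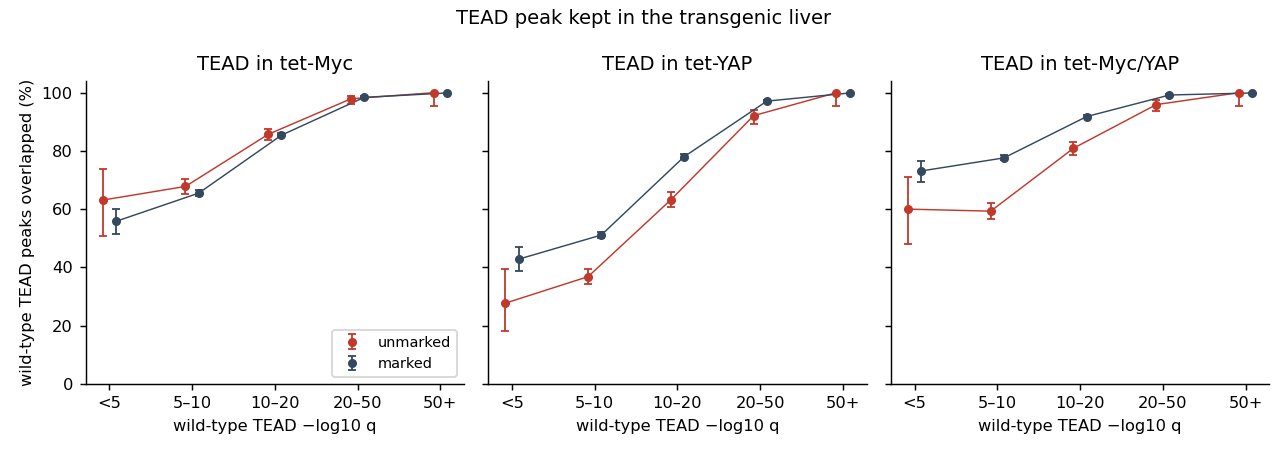
Percent of wild-type TEAD peaks kept in each transgenic TEAD list (vertical axis) by the wild-type −log10 q of the peak (horizontal axis), for unmarked (red) and marked (dark blue) peaks with Wilson 95% intervals. The curves nearly coincide in tet-Myc, whereas in tet-YAP and tet-Myc/YAP the unmarked curve runs below the marked one up to 50, for example 63.2% against 78.0% in the class of 10 to 20 in tet-YAP.

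Across the 3 transgenic lists, 1626 unmarked sites were found in all (50.7%, against 65.9% of all wild-type TEAD peaks) and 384 in none (12.0%, against 6.80%). Presence in tet-Myc and tet-Myc/YAP but not in tet-YAP was seen at 582 sites, presence in tet-Myc alone at 284 and presence in tet-YAP alone at 62. The median wild-type fold enrichment rose with the number of lists, from 4.73 at sites found in none to 4.91, 5.09 and 6.14 at sites found in 1, 2 and 3. The strongest sites of the last class are given with their fold enrichment, which is scaled within each list. At chr11:80631062-80632507, the strongest unmarked site of all, fold enrichment was 48.1 in wild-type and 102, 59.5 and 70.4 in tet-Myc, tet-YAP and double-transgenic livers. At chr7:54025517-54026840 it was 24.7 in wild-type, then 55.8, 34.1 and 93.7 in the same order. At chr9:13694081-13694960 it was 36.8, then 29.9, 16.9 and 23.6. The strongest sites lost everywhere were of moderate enrichment, at 9.0 for chr7:73806423-73806855, 7.54 for chr1:10257367-10258001 and 7.72 for chr8:4387856-4388310.

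The unmarked sites that all 4 TEAD lists shared changed their place in the ranking from liver to liver. Fold enrichment cannot be compared between lists of different scale, so each shared peak was given its percentile among the shared peaks of 1 list, where 50 would be the middle. In wild-type the 1626 unmarked sites had a median percentile of 42.1, close to the 43.7 of distal peaks and below the 54.5 of promoter-like peaks. In tet-Myc they had a median percentile of 61.9, above the 53.4 of distal and the 46.5 of promoter-like peaks. In tet-YAP and tet-Myc/YAP they were at 47.2 and 43.3, below distal peaks at 51.5 and 53.0. Unmarked sites thus ranked highest of the 3 kinds in tet-Myc and lowest in the other 3 lists. Ranking by pileup in place of fold enrichment gave 42.3 for the wild-type list, 61.3 for tet-Myc, 46.5 for tet-YAP and 43.4 for tet-Myc/YAP. By pileup, distal peaks were at 45.5, 54.0, 51.9 and 53.5 and promoter-like peaks at 53.5, 45.5, 49.3 and 48.5 in the same order of lists. In units of fold enrichment, the median of the unmarked sites was 6.14 in the wild-type list and 10.8 in tet-Myc, and that of promoter-like peaks was 6.84 and 8.83.

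**Figure D3:**
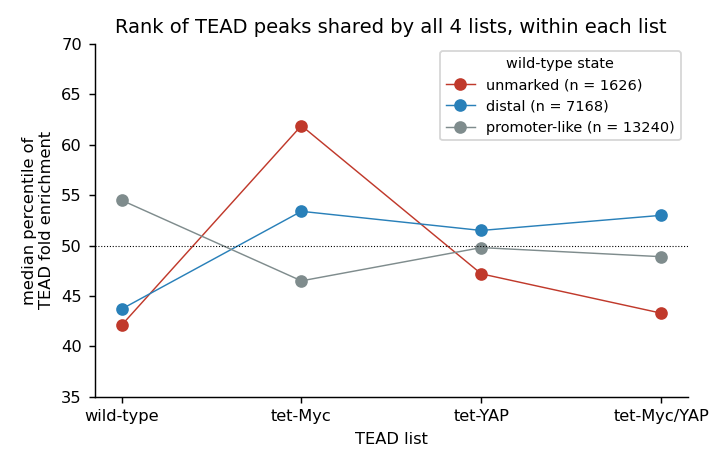
Median percentile of TEAD fold enrichment (vertical axis) within each TEAD list (horizontal axis), among the wild-type TEAD peaks found in all 4 lists, for unmarked (red), distal (blue) and promoter-like (gray) peaks; the dotted line is the middle of the ranking. The unmarked sites moved from 42.1 in wild-type to 61.9 in tet-Myc and were at 47.2 and 43.3 in tet-YAP and tet-Myc/YAP.

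YAP appeared at few unmarked sites, and the 2 livers with the YAP transgene differed in where. In tet-YAP, 176 unmarked sites carried a YAP peak (5.49%, 4.75 to 6.33), against 2.90% of distal, 2.73% of promoter-like and 3.05% of all wild-type TEAD peaks. In tet-Myc/YAP, 106 did (3.31%, 2.74 to 3.98), against 18.1% of distal, 42.8% of promoter-like and 30.7% of all peaks. YAP in tet-YAP was thus more frequent at unmarked than at marked TEAD peaks, by 2.69 percentage points, and in tet-Myc/YAP less frequent, by 30.3 points. The second sign held under every alternative tried. The first difference stayed positive but shrank to 0.277 points when only peaks with a −log10 q of at least 10 were used. At that setting YAP was left at 19 of 1874 unmarked sites in tet-YAP, too few to fix the sign. The YAP peaks of tet-YAP had a median −log10 q of 5.51 both at unmarked sites and at marked TEAD peaks. The order of the 2 genotypes at unmarked sites was less stable. The tet-YAP share exceeded the tet-Myc/YAP share by 2.18 points, but fell short of it by 0.800 points with the stricter −log10 q, at which YAP was present at 1.01% of unmarked sites in tet-YAP and 1.81% in the other list. The difference was 0.0935 points with the wild-type summit inside the YAP peak, where the tet-YAP share was 3.09%, and 5.27 points with YAP lists of equal length.

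The contrast was seen from the side of the YAP lists as well. Unmarked sites held 194 of the 1328 YAP peaks of tet-YAP (14.6%) and 105 of the 11708 of tet-Myc/YAP (0.897%). Stronger TEAD sites carried YAP more often in both. At unmarked sites with a wild-type TEAD −log10 q of 50 and over, YAP was present at 50% in tet-YAP, against 25.6% of marked peaks of the same class, and at 30.5% in tet-Myc/YAP, against 76.2%. In the class of 20 to 50 the tet-YAP values were 15.4% and 4.23%, and the tet-Myc/YAP values 7.92% and 52.7%. The 2 YAP libraries differed in more than genotype. The fragment size estimated by the peak caller was 56 bp in tet-YAP and 364 bp in tet-Myc/YAP, median peak widths were 98.0 and 548 bp, and the control of the second had 167 M tags against 25.2 M for the first. Windows of 500 bp around YAP and Myc summits left the shares within their counting intervals. Requiring the wild-type TEAD summit to lie inside the YAP peak, a setting that bears on peak width, lowered the tet-YAP share as given above. Cutting both YAP lists to 1328 peaks left 0.218% of unmarked sites with YAP in tet-Myc/YAP. The part of fragment size and control depth in the contrast was not tested.

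**Figure D4:**
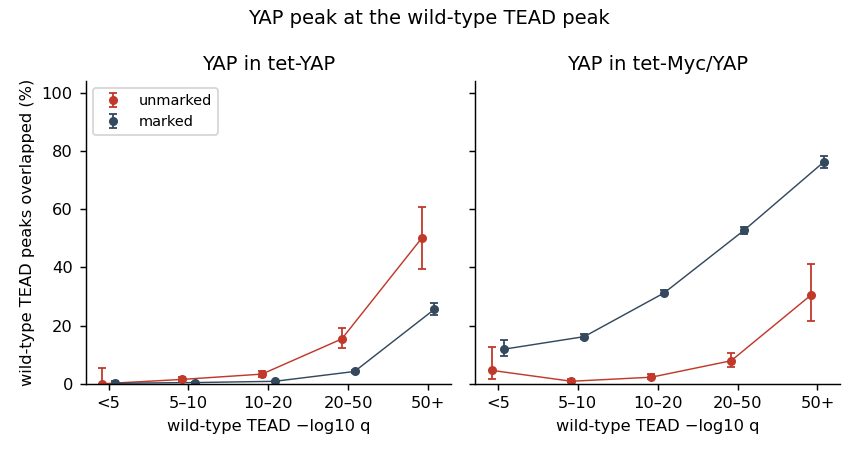
Percent of wild-type TEAD peaks carrying a YAP peak (vertical axis) by the wild-type TEAD −log10 q (horizontal axis) in tet-YAP (left) and tet-Myc/YAP (right), for unmarked (red) and marked (dark blue) peaks with Wilson 95% intervals. The unmarked curve runs above the marked one in tet-YAP from 5 upwards, reaching 50% against 25.6%, and below it in tet-Myc/YAP, reaching 30.5% against 76.2%.

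Most YAP sites of tet-YAP among the unmarked ones were not found when Myc was induced too. YAP was present in both lists at 33 unmarked sites (1.03%, against 1.76% of all wild-type TEAD peaks), in tet-YAP alone at 143 (4.46%, against 1.30%), and in tet-Myc/YAP alone at 73 (2.28%, against 28.9%). Of the 176 tet-YAP sites 18.8% (13.7 to 25.2) were therefore retained in tet-Myc/YAP, compared with 49.7% (44.3 to 55.1) of distal and 75.8% (71.9 to 79.3) of promoter-like YAP sites. The tet-Myc/YAP list itself reached 3.31% of unmarked, 18.1% of distal and 42.8% of promoter-like TEAD peaks, so these shares start from unlike base rates. In the other direction, 31.1% of unmarked YAP sites of tet-Myc/YAP had YAP in tet-YAP, against 7.97% of distal and 4.83% of promoter-like ones. Of the 143 sites with YAP in tet-YAP alone, 138 carried TEAD in tet-Myc/YAP (96.5%) and 131 in tet-YAP (91.6%). Their median wild-type TEAD −log10 q was 23.2. All unmarked sites of the class of 20 to 50 kept TEAD at similar shares, 95.9% in tet-Myc/YAP and 92.1% in tet-YAP. Median wild-type TEAD fold enrichment was 11.6 at sites with YAP in both lists, 8.07 with YAP in tet-YAP alone, 6.83 with YAP in tet-Myc/YAP alone and 5.33 with YAP in neither.

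Single sites show the 3 classes. With YAP in both livers, chr4:47062538-47063862 had a wild-type TEAD fold enrichment of 35.6 and YAP fold enrichments of 21.0 (tet-YAP) and 8.28 (tet-Myc/YAP list), with no Myc, polymerase or mark in any list. The strong site on chromosome 11 described above also belonged here, with YAP at 16.5 and 13.1, as did the one on chromosome 7, with YAP at 12.5 and 9.19. With YAP in tet-YAP alone, chr6:34143457-34144433 had TEAD at 21.9 in wild-type, 26.4 in tet-YAP and 64.3 with both transgenes, and YAP at 25.2 in tet-YAP. A site of 823 bp on chromosome 18 had TEAD at 25.8 in wild-type and YAP at 21.2 in tet-YAP, and chr11:75527282-75528117 had TEAD at 21.7 and YAP at 6.50. These sites had no Myc, polymerase, H3K27ac or H3K4me3 in any of the lists. With YAP in tet-Myc/YAP alone, chr9:51676706-51677856 had TEAD at 24.2 in wild-type, YAP at 7.69 and Myc at 8.0 in tet-Myc/YAP, polymerase at 4.10 there, and H3K27ac in both livers with the YAP transgene. The site chr4:81267040-81268094 had TEAD at 21.8 and YAP at 8.28, and, like the site on chromosome 9 described earlier (YAP 6.80), gained H3K27ac in tet-Myc/YAP but no Myc. Myc was therefore present at 1 of these 3 strongest sites.

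Myc was rare at unmarked sites even when induced. It was found at 10 of them in wild-type (0.312%, against 7.83% of all wild-type TEAD peaks), at 241 in tet-Myc (7.51%, 6.65 to 8.48, against 62.5%), at 46 in tet-YAP (1.43%, against 29.9%) and at 304 in tet-Myc/YAP (9.48%, 8.51 to 10.5, against 61.6%). Distal peaks, which share with the unmarked sites the lack of H3K4me3, carried Myc at 49.2% in tet-Myc and 45.9% in tet-Myc/YAP. Myc was present in both tet-Myc and tet-Myc/YAP at 161 unmarked sites (5.02%, against 56.0%). The Myc peaks at unmarked sites were weaker than elsewhere, with a median fold enrichment of 6.86 in tet-Myc against 9.33 at marked TEAD peaks, and 8.75 against 12.0 in tet-Myc/YAP. With the 4 Myc lists cut to the 4775 strongest peaks each, Myc was left at 0.374% of unmarked sites in tet-Myc and in tet-Myc/YAP (12 sites in each). The wild-type value at this length was 0.312% (10 sites). Equal length fixes the number of peaks in each list, so this cut cannot show whether Myc reached more sites than in wild-type. With the wild-type TEAD summit inside the Myc peak, Myc was at 0% of unmarked sites in wild-type, 6.83% in tet-Myc and 9.32% in tet-Myc/YAP. With a −log10 q of at least 10, wild-type was also at 0% and tet-Myc/YAP at 9.18%. The wild-type Myc list, with a fragment size of 51 bp and a median width of 81.0 bp, was unlike the other 3, so the increase over wild-type was not measured with like lists.

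Myc and YAP overlapped at unmarked sites in tet-Myc/YAP and hardly in tet-YAP. In tet-Myc/YAP, 47 of 106 unmarked sites with YAP carried Myc (44.3%, 35.2 to 53.8), against 8.29% (7.37 to 9.31) of those without YAP. In tet-YAP, where Myc was not induced by a transgene, 3 of 176 did (1.70%), against 1.42%. Sites with YAP in tet-Myc/YAP alone had Myc in tet-Myc at 27 of 73 (37.0%, 26.8 to 48.5), while sites with YAP in tet-YAP alone had it at 2 of 143 (1.40%, 0.384 to 4.96). The genotypes are separate livers after the same induction, so no order of binding can be read from these shares. They were also not split by TEAD strength, with which both factors differed. In tet-Myc/YAP, unmarked sites of the class of 5 to 10 had YAP at 0.868% and Myc at 6.70%. Those of 50 and over had YAP at 30.5% and Myc at 25.6%. The strongest TEAD sites with Myc in tet-Myc were chr2:51893206-51894189, with Myc at 7.0 in tet-Myc and 19.1 in tet-Myc/YAP, chr11:63588515-63589409, with 12.6 and 10.8, and chr8:31187957-31188950, with 6.31 and 6.50. Of these, the last had YAP in tet-Myc/YAP, at a fold enrichment of 10.9, and lay 307206 bp from the nearest wild-type mark.

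RNA polymerase II also stayed scarce. It overlapped 137 unmarked sites in tet-Myc (4.27%, against 65.5% of all wild-type TEAD peaks), 108 in tet-YAP (3.37%, against 54.5%) and 146 in tet-Myc/YAP (4.55%, against 59.9%), compared with the 59 of wild-type. Polymerase in at least 1 transgenic liver but not in wild-type was seen at 164 sites (5.11%, against 22.1%), and in all 3 but not in wild-type at 21 (0.655%, against 6.48%). The wild-type polymerase library was the shallowest, with 20.9 M tags against 37.7 to 50.6 M, and its list was the shortest, with 39181 peaks. With lists of equal length, 3.02%, 2.53% and 3.52% of unmarked sites had polymerase in tet-Myc, tet-YAP and double-transgenic livers, so the distance from the 1.84% of wild-type narrowed. Among the 21 sites, chr2:51893206-51894189 had polymerase fold enrichments of 10.6, 14.7 and 15.9 in tet-Myc, tet-YAP and double-transgenic livers. The next strongest were a pair on chromosome 19, chr19:12834087-12834811 with 7.83, 4.94 and 6.09, and chr19:12793635-12794209 with 21.8, 8.17 and 5.81, which lie in the same stretch of the chromosome. The latter also gained YAP in tet-YAP (15.9), Myc in both livers with the YAP transgene (5.25 and 10.8), and H3K27ac in the same livers.

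H3K27ac appeared at more unmarked sites than H3K4me3. Its regions were also wider, with median widths of 5946 to 7294 bp in the transgenic lists against 2524 to 3498 bp for H3K4me3. The part of region width in this difference was not tested. H3K27ac covered 306 unmarked sites in tet-Myc (9.54%, 8.57 to 10.6, against 83.6% of all wild-type TEAD peaks), 377 in tet-YAP (11.8%, against 82.8%) and 435 in tet-Myc/YAP (13.6%, against 82.4%). Most marked peaks had the mark in wild-type already, so their share is no measure of gain. In all, 685 unmarked sites had H3K27ac in at least 1 transgenic liver (21.4%, against 87.9%) and 115 in all 3 (3.59%, against 77.5%). The sites with the mark in a single liver numbered 86 for tet-Myc, 135 for tet-YAP and 146 for tet-Myc/YAP. Cutting the H3K27ac lists to equal length lowered the shares to 5.46%, 7.39% and 8.17% and kept their order. Most of the regions that reached an unmarked site had no wild-type counterpart: 217 of 285 regions in tet-Myc, 288 of 359 in tet-YAP and 367 of 413 in tet-Myc/YAP. Their deposited scores were low, with a median percentile within the list of 12.9, 14.1 and 20, against 57.4 to 58.3 for regions that overlapped a wild-type region. Regions without a wild-type counterpart that lay elsewhere had similarly low medians of 15.8, 14.8 and 18.0, so low scores were shared by new regions in general.

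H3K27ac was more frequent at unmarked sites nearer to marked chromatin and at those with a factor bound, although most sites with the mark lacked Myc and YAP. In tet-Myc/YAP, 276 of the 435 had no Myc peak and 387 had no YAP peak. Within 10 kb of a wild-type mark region 17.1%, 21.0% and 19.1% of unmarked sites had H3K27ac in tet-Myc, tet-YAP and double-transgenic livers, and at 100 kb and over 4.24%, 3.64% and 6.26%. In tet-Myc/YAP, 52.3% (46.7 to 57.9) of sites with Myc had it, against 9.51% of those without, and 45.3% (36.1 to 54.8) of sites with YAP, against 12.5%. In tet-YAP, 26.7% (20.7 to 33.7) of sites with YAP had it, against 10.9%, and in tet-Myc, 24.1% (19.1 to 29.8) of sites with Myc, against 8.36%. TEAD showed the same order, with 15.4% of sites that kept TEAD in tet-YAP carrying H3K27ac against 6.85% of those that lost it. These contrasts were not split by TEAD strength, with which the mark also differed. In the wild-type −log10 q class of 5 to 10, 8.28%, 9.94% and 10.1% of unmarked sites had H3K27ac in tet-Myc, tet-YAP and double-transgenic livers. In the class of 20 to 50 the values were 13.3%, 16.5% and 22.5%. The strongest TEAD site with the mark in all 3 livers was the one on chromosome 11, where Myc (6.78) and polymerase (5.10) were present in tet-Myc/YAP alone. At chr10:107869043-107870091 the mark came with TEAD at 17.0, 35 and 74.7 in tet-Myc, tet-YAP and double-transgenic livers, against 18.6 in wild-type, and with YAP at 8.01 in tet-Myc/YAP. In both livers with the YAP transgene this site also carried Myc (3.00 and 7.67) and polymerase (6.09 and 15.3). At chr3:86954233-86955098 it came with YAP at 31.8 in tet-YAP and without Myc or polymerase. At these 3 sites the mark was thus seen in tet-Myc without Myc or polymerase in that liver. No YAP list of tet-Myc was available here, and the paper reports no significant YAP binding in it.

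**Figure D5:**
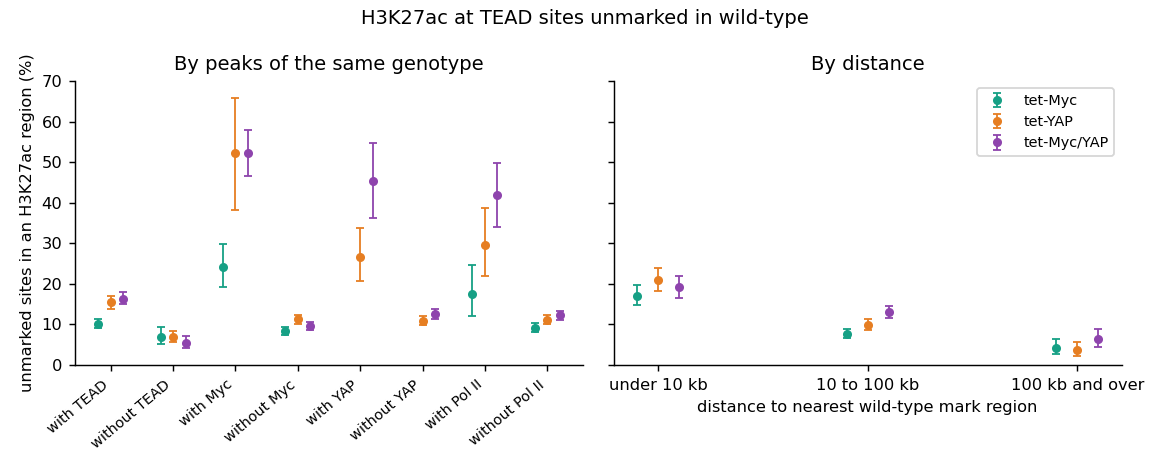
Percent of unmarked sites lying in an H3K27ac region (vertical axis, Wilson 95% intervals) in tet-Myc (green), tet-YAP (orange) and tet-Myc/YAP (purple): on the left for sites with or without a peak of TEAD, Myc, YAP or RNA polymerase II (Pol II) in the same liver, on the right by distance to the nearest wild-type mark region. Sites with Myc in tet-Myc/YAP reached 52.3% against 9.51% without, and the share fell from 17.1 to 21.0% within 10 kb to 3.64 to 6.26% at 100 kb and over.

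H3K4me3 hardly appeared. It covered 43 unmarked sites in tet-Myc (1.34%, against 52.4% of all wild-type TEAD peaks), 19 in tet-YAP (0.592%, against 48.8%) and 74 in tet-Myc/YAP (2.31%, against 54.2%), and 95 sites had it in at least 1 of these livers (2.96%, against 57.6%). Distal peaks, which lacked the mark in wild-type too, had it at 4.46%, 2.39% and 8.33% in tet-Myc, tet-YAP and double-transgenic livers. The unmarked sites had the lower share in each. With H3K4me3 lists of equal length the unmarked shares were 0.561% in tet-Myc, 0.592% in tet-YAP and 0.748% with both transgenes, so that tet-Myc and tet-YAP changed places. In tet-Myc/YAP, 12.8% (9.53 to 17.1) of unmarked sites with Myc had H3K4me3, against 1.21% of those without. This contrast was not split by TEAD strength. At chr2:51893206-51894189 the mark was present in all 3 transgenic livers, beside the polymerase and Myc described above and without H3K27ac. At chr1:41709086-41710118 it was present in tet-Myc/YAP with Myc (14.4), YAP (7.86) and H3K27ac, and at chr13:24656840-24658296 in tet-Myc/YAP with YAP in both YAP lists (10.5 and 7.98) and H3K27ac in all 3 transgenic livers.

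Most unmarked sites stayed bare in these lists. At 2364 (73.7%, 72.2 to 75.2, against 9.82% of all wild-type TEAD peaks) no transgenic H3K27ac or H3K4me3 region and no polymerase peak of any genotype was found, and at 2080 (64.9%, against 8.23%) no Myc or YAP peak either. Because the members were chosen for lacking wild-type marks, these shares describe them and are not a comparison. TEAD was kept in all 3 transgenic livers at 1103 of the 2364 (46.7%) and at 912 of the 2080 (43.8%), below the 50.7% of all unmarked sites and the 65.9% of all wild-type TEAD peaks. Among the 2364, 98 carried YAP in tet-YAP, 42 carried it in tet-Myc/YAP, and 119 carried Myc in tet-Myc.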

How the data were processed

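Liver ChIP-seq of 24 samples was available, of which 23 had a peak list; the input was not analysed here. The submitters' processing notes name BWA 0.6.2 for alignment, SAMtools, MACS2 2.0.9 for peak calling and the mm9 build. The 14 narrow lists were, per the file headers, made for each library at a p-value cutoff of 1.00e-05 from 16.9 to 50.6 M tags. For each peak the authors deposited the summit pileup signal, the fold enrichment over control as a ratio, and −log10 p and −log10 q values. The 9 broad lists were deposited with a score of unstated scale, used only to rank regions. YAP chromatin was fixed with a protein crosslinker and formaldehyde, other chromatin with formaldehyde alone.

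Overlap of at least 1 bp was computed with Python 3.11.15, numpy 2.4.6 and pandas 2.3.3, and tested on simulated data (0 mismatches in 3 checks). Wilson 95% intervals (statsmodels 0.14.6) cover counting only, and neighboring peaks are not independent. Figures were drawn with matplotlib 3.10.9. Groups followed the labels. Members, classes and tests were chosen with earlier results of these data known. Named sites are, in each class, the 3 with the highest wild-type TEAD −log10 q, ties broken by fold enrichment, then position. Alternatives were the summit inside the partner peak, −log10 q of at least 10, lists of equal length, members at least 1000 bp from a mark, and, chosen after seeing the data, windows of 500 bp around YAP and Myc summits. Motifs, sequences and nearest genes were not analysed, since no mm9 genome or annotation was used here.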

Additional observations from a re-analysis of the deposited data

Results flagged for a closer look

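The difference between unmarked and marked wild-type TEAD peaks in the share with YAP had opposite signs in the 2 livers with the YAP transgene. Unmarked minus marked, it was 2.69 percentage points in tet-YAP and -30.3 points in tet-Myc/YAP. The first was 0.277 points with a −log10 q of at least 10, a setting that left YAP at 19 unmarked sites in tet-YAP. Each value rests on 1 library, and the difference between them was not tested.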

How the results depend on the processing

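No paired analysis was possible because each antibody and genotype had 1 library. Leaving out a library was not done for the same reason. Of 25 results, requiring members to lie at least 1000 bp from a mark kept all 25 within 1 counting interval, and windows of 500 bp around summits kept the 9 results for YAP and Myc.

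With −log10 q of at least 10, TEAD was kept at 84.5%, 59.3% and 78.8% in tet-Myc, tet-YAP and double-transgenic livers, and the difference from marked peaks in tet-Myc turned to 2.02 points. YAP fell to 1.01% and 1.81% in tet-YAP and tet-Myc/YAP, so that tet-YAP minus tet-Myc/YAP turned to -0.800 points, and unmarked minus marked in tet-YAP to 0.277. Myc was 0%, 5.6% and 0.800% in wild-type, tet-Myc and tet-YAP, polymerase 0.854% and 2.29% in wild-type and tet-YAP, and H3K27ac 13.0% and 16% in tet-YAP and tet-Myc/YAP. The broad lists were not filtered.

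With lists of equal length, TEAD was 70.7% and 54.1% in tet-Myc and tet-Myc/YAP, and the tet-Myc difference from marked peaks turned to 1.34 points. YAP in tet-Myc/YAP was 0.218%, unmarked minus marked there -4.15 points, and tet-YAP minus tet-Myc/YAP 5.27. Myc was 0.374%, 0.343% and 0.374% in tet-Myc, tet-YAP and double-transgenic livers, polymerase 3.02%, 2.53% and 3.52%, H3K27ac 5.46%, 7.39% and 8.17%, and H3K4me3 0.561%, 0.592% and 0.748%, so that its order in tet-Myc and tet-YAP turned.

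With the wild-type summit inside the partner peak, TEAD was 78.1%, 55.5% and 72.5%, and the tet-Myc difference turned to 0.704 points. YAP in tet-YAP was 3.09%, and tet-YAP minus tet-Myc/YAP 0.0935 points. Myc in wild-type was 0%, and polymerase 1.40% and 3.87% in wild-type and tet-Myc/YAP. The cause of these changes was not tested beyond what each setting removes.

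The lists hold called peaks only, so signal under the cutoff was not measured. Depth is given for the narrow lists alone, and no result has a replicate.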

Other observations

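Unmarked sites were unevenly spread over the chromosomes. On the X chromosome 52 of 309 wild-type TEAD peaks were unmarked (16.8%, Wilson 95% interval 13.1 to 21.4), against 7.01% on chromosome 19 to 11.4% on chromosome 1 among the autosomes. The median distance from an unmarked summit to the nearest other unmarked summit was 145163 bp, and to the nearest other wild-type TEAD summit of any kind 28139 bp. Neither was compared with a random placement of sites.

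Loss of H3K27ac at marked TEAD peaks is no scale for the gains at unmarked ones. Peaks counted for loss were chosen for having the mark in wild-type, and unmarked sites for having none. The wild-type H3K27ac list was also the shortest, with 17821 regions against 20347 to 21854. With lists of equal length, 5.46%, 7.39% and 8.17% of unmarked sites were covered in tet-Myc, tet-YAP and double-transgenic livers. The losses at equal length were not tested. Among 27367 marked TEAD peaks with H3K27ac in wild-type, 3.47%, 3.82% and 5.50% were not covered in tet-Myc, tet-YAP and double-transgenic livers. Among the 2841 marked peaks without H3K27ac in wild-type, which carried another mark there, 42.7%, 34.1% and 43% were covered, compared with 9.54%, 11.8% and 13.6% of the unmarked sites.

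Distance from a wild-type mark region moved with H3K27ac and polymerase but hardly with TEAD. At 100 kb and over, TEAD was kept at 81.0%, 57.8% and 70.9% of 495 unmarked sites in tet-Myc, tet-YAP and double-transgenic livers, and within 10 kb at 77.0%, 57.2% and 75% of 820. Polymerase was found at 0.404%, 0% and 1.01% of the distant and 8.17%, 7.20% and 8.90% of the near sites in the same genotypes. Myc was also less frequent at the distant sites, at 5.25% against 8.54% of the near ones in tet-Myc and 5.66% against 12.3% in tet-Myc/YAP. YAP was found at 2.63% of distant and 6.10% of near sites in tet-YAP, but at 3.84% and 3.05% in tet-Myc/YAP.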
